A study of Mus musculus with 28 samples.

Results

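The 9 genes described here encode enzymes that break down straight-chain fatty acids in liver peroxisomes, or that act beside that pathway on its substrates and products. They are Ehhadh, Hsd17b4, Acaa1a, Acaa1b, Ech1, Eci2, Decr2, Pecr and Crot, and they were taken by gene symbol, by a rule that uses no measured value, from the 23393 gene symbols measured. All 9 had a row in both count tables and all 9 passed the filter on low counts. Liver RNA was sequenced from 28 mice of strain 129svj, aged 11 to 13 months, with 7 animals in each of 4 groups. HZ WY animals were heterozygous for Sirt6 and received WY-14643 (WY) at 50 mg/kg by oral gavage. WT WY animals were wild type and received the same dose. HZ vehicle and WT vehicle animals of the same genotypes received the carrier alone. All 4 groups were given 0.5% carboxymethylcellulose, in the WY groups as the carrier of the drug, and livers were taken 12 h after the gavage. The labels describe neither the construction of the Sirt6 allele nor the sex of the mice.

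Peroxisomes shorten very long and medium-to-long acyl-CoAs by rounds of oxidation, hydration, dehydrogenation and thiolytic cleavage. The first step belongs to the acyl-CoA oxidases of the straight-chain pathway, which are not analysed here. Ehhadh and Hsd17b4 are the bifunctional enzymes that carry out the hydration and dehydrogenation, and Acaa1a and Acaa1b are the thiolases that release acetyl-CoA. Ech1, Eci2 and Decr2 move or reduce double bonds so that unsaturated chains can enter the cycle. Pecr is a peroxisomal enoyl-CoA reductase, a reaction that runs towards chain elongation, and Crot joins medium-chain products to carnitine so that they can leave the organelle. WY is an agonist of the nuclear receptor PPAR-alpha, for which peroxisomal enzyme genes in rodent liver are classical targets, and Sirt6 is a nuclear deacylase.

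The libraries held 15795201 to 20020078 gene counts each. Sirt6, the gene that defines the genotypes, had 1.29 to 2.29 CPM (counts scaled to a common library size) in HZ WY and 2.27 to 4.18 CPM in WT WY, and 0.882 to 1.38 CPM in HZ vehicle and 1.91 to 3.53 CPM in WT vehicle. Its log2 fold change in HZ against WT was -1.04 ± 0.16 under WY (SE; edgeR quasi-likelihood test, adjusted p = 0.00721) and -0.97 ± 0.17 under vehicle (edgeR, adjusted p = 0.00696). In a principal component analysis 5 HZ libraries stood apart on the second component, which held 9.77% of the variance: WY animals 14, 15 and 21 and vehicle animals 30 and 38. Summed neutrophil and monocyte markers (4 of 4 found) reached 19.7 CPM in HZ WY and 4.11 CPM in WT WY, and 14.6 CPM in HZ vehicle and 7.41 CPM in WT vehicle, with the highest HZ values in animals 21 and 38. Summed Kupffer cell markers (7 of 8 found) spanned 255 to 657 CPM in HZ WY and 225 to 322 CPM in WT WY, and 307 to 613 CPM in HZ vehicle and 305 to 423 CPM in WT vehicle. The 7 hepatocyte markers summed to 47162 to 85517 CPM in HZ WY and 69103 to 81004 CPM in WT WY, against 74213 to 111912 CPM in HZ vehicle and 85350 to 111830 CPM in WT vehicle, so the tissue label matched. Of the 3 adipocyte markers, Lep was at 0 in all libraries. The other markers were near the floor, with group means of 0.051 to 0.0982 CPM for Adipoq and 0.0471 to 0.122 CPM for Cidea. The part of these marker levels in the results below was not tested, and in whole liver fewer cells of a type and less RNA per cell cannot be told apart. WY and vehicle libraries are also separate deposited tables, so treatment and table cannot be told apart.

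The 9 genes differed widely in abundance, and most of their reads came from Ehhadh and Acaa1b. Together they took 3.71 ± 0.146% of gene counts in HZ WY and 3.88 ± 0.197% in WT WY, against 0.956 ± 0.33% in HZ vehicle and 1.52 ± 0.424% in WT vehicle (SD, n = 7 each). Ehhadh alone took 2.29% in HZ WY and 2.32% in WT WY, against 0.454% in HZ vehicle and 0.814% in WT vehicle. The counts behind each value ran from 2217 for Pecr to 445281 for Ehhadh, so counting error was small beside the spread between animals.

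On GRCm38, Ehhadh lies at chr16:21761287-21787807, Acaa1b at chr9:119148023-119157093 and Acaa1a at chr9:119339676-119350299, and Hsd17b4 is on chromosome 18. Ech1 lies at chr7:28825217-28832247, Eci2 at chr13:34977748-35027096, Decr2 at chr17:26081208-26090337, Pecr at chr1:72259167-72284314 and Crot at chr5:8966033-8997324. All 9 are annotated as protein-coding in GENCODE M21, and the levels are sums over the exons of each gene.

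Set against transcript length, as CPM per kilobase of the longest coding transcript, the order of levels was Ehhadh, Acaa1b and Crot in all 4 groups. Ehhadh stood at 7538 ± 288 CPM per kb in HZ WY and 7798 ± 558 in WT WY, against 1528 ± 817 in HZ vehicle and 2790 ± 994 in WT vehicle (SD, n = 7 each). Acaa1b followed with 4896 ± 405 CPM per kb in HZ WY and 5540 ± 425 in WT WY, against 1179 ± 373 in HZ vehicle and 1905 ± 516 in WT vehicle. Under WY the ranges of these first 2 genes did not overlap, and under vehicle they did. Crot had 734 ± 78.6 CPM per kb in HZ WY and 788 ± 112 in WT WY, against 336 ± 78 in HZ vehicle and 500 ± 159 in WT vehicle. Ech1 and Hsd17b4 came next and overlapped each other in every group, with group means of 266 to 566 CPM per kb. The remaining order changed with treatment: Eci2, Acaa1a, Decr2 and Pecr under WY, and Eci2, Pecr, Acaa1a and Decr2 under vehicle, where each of the last 3 overlapped its neighbour in the order.

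Stretches of regulatory sequence are shown for 3 genes at the ends of the WY response, Ehhadh and Acaa1b with the largest increases and Pecr with a decrease. They are the 250 bases before the RefSeq start of each gene on GRCm38.p6, read 5′ to 3′ on the gene's strand, with the letters CCAAT or their reverse complement in capitals. Ehhadh lies on the minus strand (chr16:21787835-21788084), as do Acaa1b (chr9:119157094-119157343) and Pecr (chr1:72284322-72284571).
Ehhadh: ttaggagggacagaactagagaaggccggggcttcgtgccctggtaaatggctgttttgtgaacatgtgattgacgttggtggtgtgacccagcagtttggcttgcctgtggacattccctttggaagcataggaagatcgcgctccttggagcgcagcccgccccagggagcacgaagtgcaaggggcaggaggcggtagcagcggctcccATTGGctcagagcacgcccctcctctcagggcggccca
Acaa1b: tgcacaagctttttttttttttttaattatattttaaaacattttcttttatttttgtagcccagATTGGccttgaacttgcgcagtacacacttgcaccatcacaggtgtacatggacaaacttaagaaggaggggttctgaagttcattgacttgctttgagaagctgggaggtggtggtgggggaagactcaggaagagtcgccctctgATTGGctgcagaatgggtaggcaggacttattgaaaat
Pecr: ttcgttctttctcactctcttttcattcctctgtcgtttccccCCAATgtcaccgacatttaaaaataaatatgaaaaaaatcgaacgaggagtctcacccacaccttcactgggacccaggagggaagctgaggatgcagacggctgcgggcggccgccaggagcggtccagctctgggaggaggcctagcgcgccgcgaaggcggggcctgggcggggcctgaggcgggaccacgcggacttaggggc
CCAAT was found on either strand in 6 of the 8 genes with a RefSeq promoter in the table, Ehhadh, Acaa1a, Acaa1b, Eci2, Crot and Pecr, and in 33.8% of all 32851 promoters searched over the same length. In Ehhadh and in Acaa1b the nearest match began 38 bases before the start. The letters AGGTCA, a half-site bound by PPARs and other nuclear receptors, were in none of the 8 windows and in 14% of all promoters. The direct repeat of AGGNCA after 1 free base (DR1), in which AGGTCA can occur, was in none of the 8 and in 0.338% of all promoters. The windows of Acaa1a and Eci2 lie inside the gene spans given above, and those of Ech1, Crot and Decr2 overlap theirs in part. These counts say only which letters lie in these 250 bases.

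**Figure D1:**
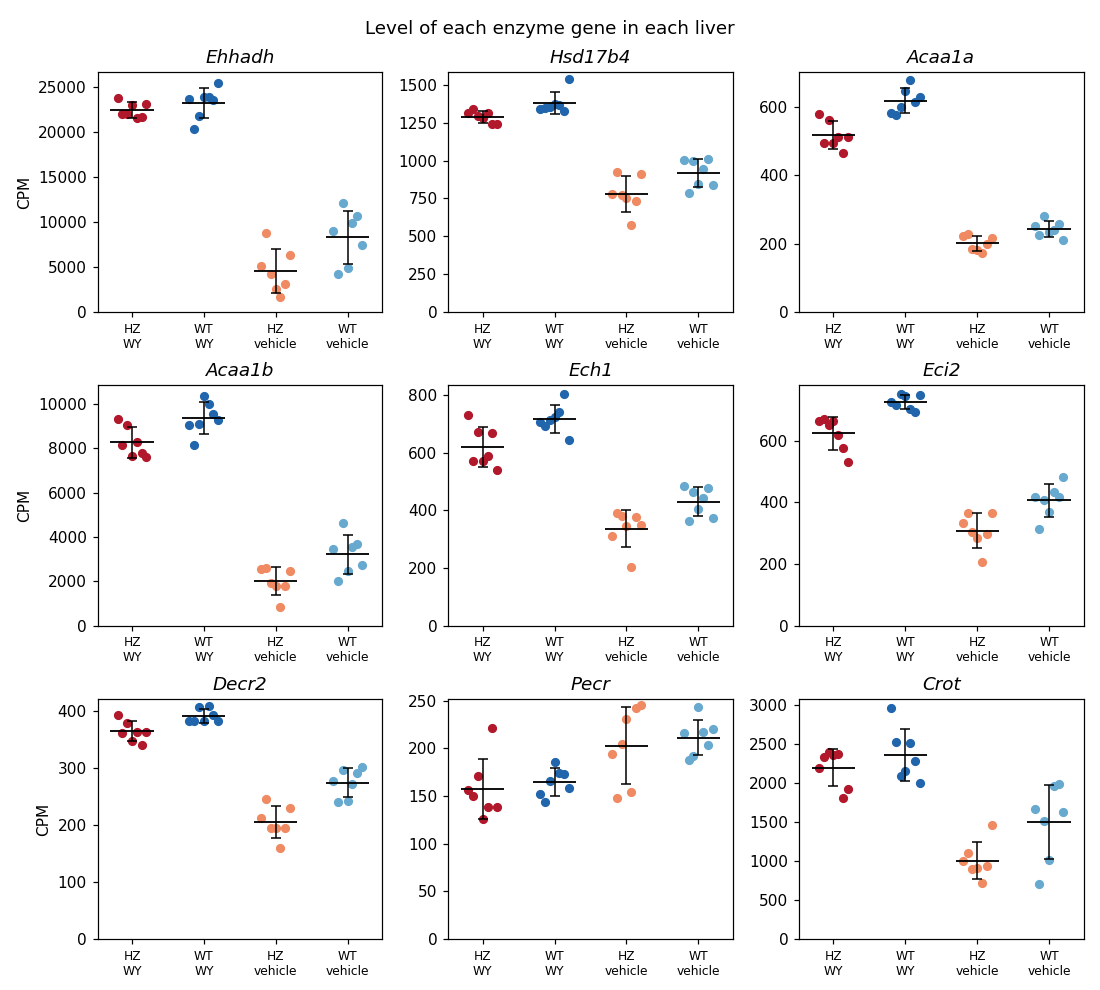
Level of each of the 9 genes in CPM (vertical axis, from 0, linear) in the 7 livers of each group, one point per animal, with the group mean and SD as black bars. Ehhadh lay at 20364 to 25509 CPM in the 14 WY livers and at 1669 to 12128 CPM in the 14 vehicle livers, while Pecr was lower under WY.

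WY raised 8 of the 9 genes in both genotypes and lowered Pecr. In HZ livers 8 genes passed the test as higher and 1 as lower, and the same numbers passed in WT livers. Among all 12607 genes tested in edgeR, 29.3% passed as higher and 26.4% as lower in HZ, and 27.4% and 26.7% in WT. The median log2 fold change of the 9 genes was 1.02 in HZ and 0.74 in WT, beside 0.0111 and -0.017 over all genes. The WY and vehicle ranges did not overlap for 8 genes in HZ and for all 9 in WT. Over all genes, non-overlapping ranges were found for 12.6% as higher and 9.89% as lower in HZ, and for 15.7% as higher and 12.1% as lower in WT.

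Ehhadh, the bifunctional enzyme of the inducible pathway, had the largest increase of the 9 in HZ and, after Acaa1b, the second largest in WT. It ranged from 21573 to 23826 CPM in HZ WY (median 22050), against 1669 to 8754 CPM in HZ vehicle (median 4266). It ranged from 20364 to 25509 CPM in WT WY (median 23646), against 4196 to 12128 CPM in WT vehicle (median 9042). Every WY liver was above every vehicle liver. The log2 fold change was 2.30 ± 0.26 in HZ (SE, a 4.93-fold increase; edgeR, adjusted p = 3.76e-08) and 1.48 ± 0.26 in WT (2.80-fold; edgeR, adjusted p = 2.07e-05).

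Hsd17b4, the second bifunctional enzyme, which also serves branched-chain and bile acid intermediates, moved less. It had 1240 to 1340 CPM in HZ WY (median 1291), against 573 to 922 CPM in HZ vehicle (median 770). In WT it had 1330 to 1537 CPM under WY (median 1351), against 789 to 1008 CPM under vehicle (median 945). The groups did not overlap in either genotype. The log2 fold change was 0.73 ± 0.08 in HZ (edgeR, adjusted p = 7.54e-09) and 0.59 ± 0.08 in WT (edgeR, adjusted p = 3.12e-07).

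The 2 thiolases, Acaa1a and Acaa1b, are near-identical copies on chromosome 9. Their coding sequences, each 1272 bases long in GENCODE, were 96.5% identical and differed at 44 positions. Of the windows of 50 bases in the Acaa1b transcript, 35.5% occur unchanged in Acaa1a, and of windows of 100 bases, 22.6%. Reads from those windows cannot be placed uniquely, so both counts rest on the remaining positions. Among coding stretches of 120 bases taken end to end from the start codon, bases 241 to 360 had the most differences. That stretch is shown for both, with the 11 differing bases in capitals. The GRCm38 spans include introns, chr9:119341894-119344209 on the plus strand for Acaa1a and chr9:119153969-119156615 on the minus strand for Acaa1b.
Acaa1a: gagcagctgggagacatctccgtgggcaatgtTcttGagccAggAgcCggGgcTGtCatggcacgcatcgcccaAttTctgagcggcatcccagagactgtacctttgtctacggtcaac
Acaa1b: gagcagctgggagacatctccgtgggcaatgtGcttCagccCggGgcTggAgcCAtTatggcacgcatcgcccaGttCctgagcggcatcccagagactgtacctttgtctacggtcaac
Acaa1b was the more abundant copy. It ranged from 7603 to 9336 CPM in HZ WY (median 8138), against 818 to 2612 CPM in HZ vehicle (median 1921). In WT it ranged from 8153 to 10367 CPM under WY (median 9292), against 2027 to 4633 CPM under vehicle (median 3452). All WY livers were above all vehicle livers, with a log2 fold change of 2.05 ± 0.18 in HZ (edgeR, adjusted p = 3.3e-10) and 1.54 ± 0.18 in WT (edgeR, adjusted p = 3.65e-08).

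Acaa1a had 465 to 579 CPM in HZ WY (median 511), against 172 to 229 CPM in HZ vehicle (median 200). It had 574 to 676 CPM in WT WY (median 614), against 209 to 281 CPM in WT vehicle (median 240). The groups did not overlap, with a log2 fold change of 1.36 ± 0.07 in HZ (edgeR, adjusted p = 6.17e-14) and 1.35 ± 0.07 in WT (edgeR, adjusted p = 7.7e-14). The Acaa1a exons overlap Myd88 on the opposite strand over 290 bases, and those of Acaa1b overlap Dlec1 over 224 bases. Whether reads were counted by strand is not stated.

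The auxiliary enzymes for unsaturated chains rose by smaller amounts. Eci2, an enoyl-CoA isomerase, had 531 to 671 CPM in HZ WY (median 651), against 205 to 367 CPM in HZ vehicle (median 305), a log2 fold change of 1.02 ± 0.10 (edgeR, adjusted p = 7.91e-10). In WT it had 695 to 753 CPM under WY (median 726), against 315 to 482 CPM under vehicle (median 419), a log2 fold change of 0.84 ± 0.10 (edgeR, adjusted p = 2.64e-08). Treated and control livers were fully separated. Eci2 overlaps an antisense gene over 189 exonic bases, and it shares 7.19% of its windows of 50 bases with its neighbour Eci3, which did not pass the filter on low counts.

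Ech1, which shifts conjugated double bonds, had 540 to 731 CPM in HZ WY (median 588), against 202 to 389 CPM in HZ vehicle (median 348). It had 642 to 803 CPM in WT WY (median 712), against 361 to 484 CPM in WT vehicle (median 443). The ranges were again separate, and the log2 fold change was 0.88 ± 0.10 in HZ (edgeR, adjusted p = 4.24e-08) and 0.74 ± 0.10 in WT (edgeR, adjusted p = 7.87e-07). Decr2, the peroxisomal dienoyl-CoA reductase, had 340 to 392 CPM in HZ WY (median 363), against 160 to 246 CPM in HZ vehicle (median 195). Its WT values were 381 to 408 CPM under WY (median 382), against 240 to 301 CPM under vehicle (median 276). No WY liver reached down to a vehicle liver, and the log2 fold change was 0.83 ± 0.07 in HZ (edgeR, adjusted p = 1.6e-10) and 0.51 ± 0.07 in WT (edgeR, adjusted p = 5.14e-07).

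Crot, the carnitine octanoyltransferase, had 1811 to 2394 CPM in HZ WY (median 2332), against 719 to 1463 CPM in HZ vehicle (median 943). In WT the values were 2001 to 2967 CPM under WY (median 2277), against 702 to 1991 CPM under vehicle (median 1634). The lowest WT WY liver was just above the highest WT vehicle liver. Crot exons share 166 bases with an unprocessed transcript model on the opposite strand. The log2 fold change was 1.13 ± 0.17 in HZ (edgeR, adjusted p = 2.46e-06) and 0.66 ± 0.17 in WT (edgeR, adjusted p = 0.00162).

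Pecr was the member that fell. It had 126 to 221 CPM in HZ WY (median 150), against 148 to 246 CPM in HZ vehicle (median 205), and these ranges overlapped because HZ WY animal 18 had 221 CPM. In WT it had 144 to 186 CPM under WY (median 166), against 188 to 243 CPM under vehicle (median 216), with no overlap. The log2 fold change was -0.37 ± 0.11 in HZ (edgeR, adjusted p = 0.00641) and -0.36 ± 0.11 in WT (edgeR, adjusted p = 0.00748). The call in HZ was lost in an exact permutation test of the 7 against 7 livers adjusted over all genes (adjusted p = 0.0737), whereas the call in WT was kept (adjusted p = 0.0021). Pecr shares 175 of its 1516 exonic bases with an antisense lincRNA, and reads from within those shared bases cannot be told apart without strand.

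**Figure D2:**
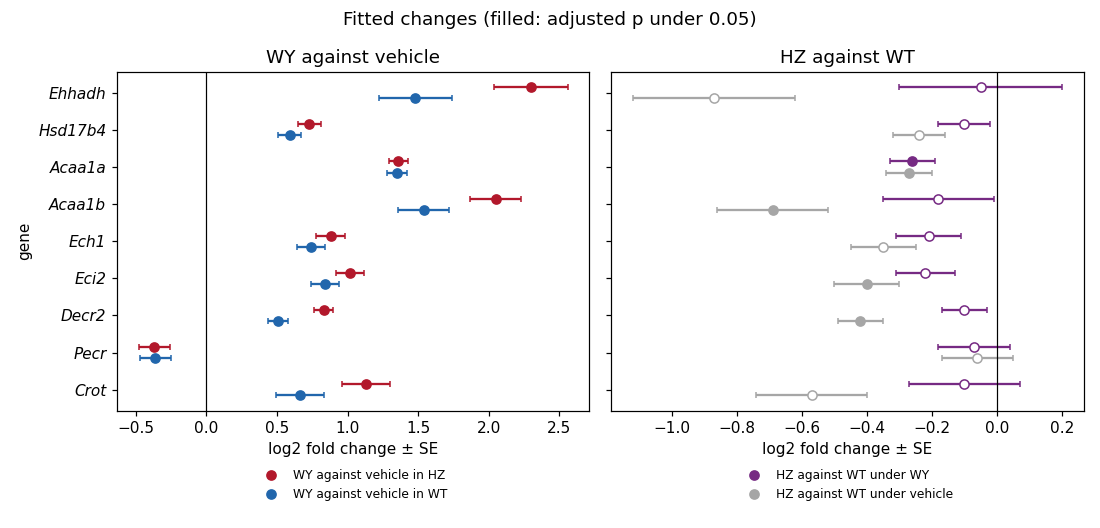
Log2 fold change (horizontal axis) of each gene in edgeR, with SE as bars, for WY against vehicle (left) and HZ against WT (right). Filled points have an adjusted p under 0.05; Ehhadh is highest at 2.30 in HZ and Pecr is below 0 in both genotypes, and on the right all values lie below 0.

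The spread between animals was smaller under WY. The SD of log2 CPM was smaller under WY than under vehicle for 9 of 9 genes in HZ and 8 of 9 in WT, beside 55.7% and 58.4% of all genes. The median ratio of the vehicle SD to the WY SD over the 9 genes was 2.24 in HZ and 2.78 in WT, beside 1.06 and 1.1 over all genes. Ehhadh showed this most plainly: the highest liver had 1.1 times the lowest in HZ WY and 1.25 times in WT WY, against 5.25 times in HZ vehicle and 2.89 times in WT vehicle. Acaa1b spanned 1.23-fold in HZ WY and 1.27-fold in WT WY, against 3.19-fold in HZ vehicle and 2.29-fold in WT vehicle.

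Within the vehicle groups the genes tended to be high or low in the same animals. Vehicle animal 38 was the lowest HZ vehicle liver for 8 of the 9 genes, and animal 34 the highest for 7 of 9. Among WT vehicle livers, animal 31 was the lowest for 8 of 9. Animal 38 deviated from its group mean by -0.62 log2 units on average over the 9 genes, and animal 31 by -0.42. Under WY the average deviations ran from -0.10 to 0.10 in HZ and from -0.08 to 0.06 in WT. Animal 38 is also 1 of the 5 libraries that stood apart and had the most genes detected, 16606, where the median of its group was 15432. It had the highest sum in its group for 6 of the 8 marker lists: neutrophil and monocyte, cholangiocyte (68.1 CPM, median 32.3), stellate cell (375 CPM, median 282), sinusoidal endothelium (173 CPM, median 144), T and B cell (1.75 CPM, median 1.1) and adipocyte (0.285 CPM, median 0.0588).

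**Figure D3:**
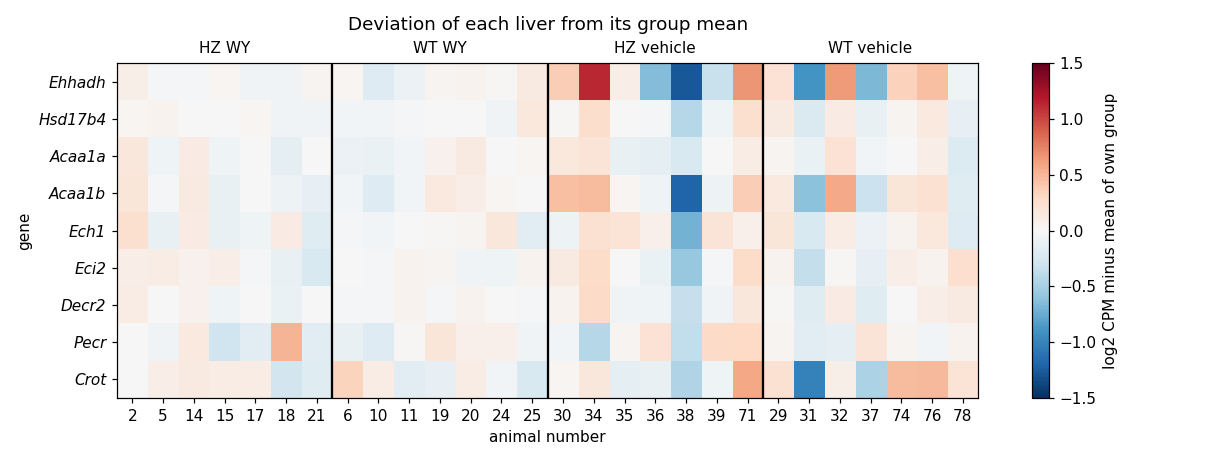
Log2 CPM of each gene (rows) minus the mean of the liver's own group, by animal (columns, numbers as in the labels), with groups divided by black lines. Blue columns mark vehicle animals 38 and 31, which averaged -0.62 and -0.42, while the WY columns are pale.

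The genotype comparison under vehicle asks whether the lower Sirt6 level is accompanied by a change of the untreated pathway. All 9 genes had lower fitted values in HZ vehicle, 4 passed the test as lower and none as higher. Over all genes, 1.77% passed as lower and 0.301% as higher. The median log2 fold change of the 9 genes was -0.40, beside -0.00141 over all genes. The HZ vehicle and WT vehicle ranges overlapped for all 9 genes, and non-overlapping lower ranges were found for 0.23% of all genes.

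Decr2 passed with the smallest p, with 160 to 246 CPM in HZ vehicle (median 195), against 240 to 301 CPM in WT vehicle (median 276) and a log2 fold change of -0.42 ± 0.07 (edgeR, adjusted p = 0.00696). Eci2 had a log2 fold change of -0.40 ± 0.10 (edgeR, adjusted p = 0.03). Acaa1b had one of -0.69 ± 0.17 (edgeR, adjusted p = 0.0345) and Acaa1a one of -0.27 ± 0.07 (edgeR, adjusted p = 0.04). The other 5 missed the threshold. Ehhadh had the largest estimate, -0.87 ± 0.25 (edgeR, adjusted p = 0.0658), with a wide spread in both groups. Crot stood at -0.57 ± 0.17 (edgeR, adjusted p = 0.0664), Ech1 at -0.35 ± 0.10 (edgeR, adjusted p = 0.0693), Hsd17b4 at -0.24 ± 0.08 (edgeR, adjusted p = 0.102) and Pecr at -0.06 ± 0.11 (edgeR, adjusted p = 0.819).

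These calls depended on the libraries used and on the test. The number of genes called ran from 1 to 8 as each vehicle library was left out in turn: 8 without WT animal 31, 7 without HZ animal 34 or 71, 6 without WT animal 37, 4 without HZ animal 30, 3 without WT animal 78, 2 without WT animal 32 or HZ animal 39, and 1 without WT animal 29, 74 or 76 or HZ animal 35, 36 or 38. Decr2 was called in all 14 of these fits. Without the 5 HZ libraries that stood apart, none was called and Decr2 had a log2 fold change of -0.37 ± 0.07 (edgeR, adjusted p = 0.0549). With vehicle animals 29 to 39 only, none was called. In a fit on the 14 vehicle libraries alone, without the spread of the WY groups, none was called either. There Decr2 stood at -0.41 ± 0.09 (edgeR, adjusted p = 0.173) and Ehhadh at -0.86 ± 0.34 (edgeR, adjusted p = 0.269). An exact permutation test adjusted over all genes also called none. This test could hardly call a gene here, because 7 against 7 livers allow no p below 0.000583. Sirt6 had that smallest p and an adjusted p of 0.216 in the same permutation test. The unadjusted permutation p was under 0.05 for 7 of the 9, beside 1742 of all 12607 genes. Without those 5 libraries 8 genes kept lower fitted values in HZ vehicle, and Pecr stood at 0.02.

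Under WY, all 9 genes again had lower fitted values in HZ WY, 1 passed as lower and none as higher, beside 1.74% and 1.42% of all genes. The median log2 fold change of the 9 genes was -0.10, beside 0.00905 over all genes. Acaa1a passed, with 465 to 579 CPM in HZ WY (median 511), against 574 to 676 CPM in WT WY (median 614) and a log2 fold change of -0.26 ± 0.07 (edgeR, adjusted p = 0.042). It was called in 3 of the 14 fits that each left out 1 WY library, those without HZ animal 2 or 14 or WT animal 6. Without the 5 HZ libraries that stood apart its value was -0.27 ± 0.08 (edgeR, adjusted p = 0.109).

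Eci2 had 531 to 671 CPM in HZ WY (median 651), against 695 to 753 CPM in WT WY (median 726). Its groups did not overlap, as for 0.896% of all genes with lower values in HZ, but its log2 fold change of -0.22 ± 0.09 missed the threshold in the fit on all libraries (edgeR, adjusted p = 0.16). In a fit on the 14 WY libraries alone it passed (edgeR, adjusted p = 0.046), as it did in the exact permutation test (adjusted p = 0.0432). The unadjusted p of that permutation test was under 0.05 for 6 of the 9 genes under WY, beside 3028 of all 12607 genes. Ehhadh stood at -0.05 ± 0.25 (edgeR, adjusted p = 0.93), Acaa1b at -0.18 ± 0.17 (edgeR, adjusted p = 0.56) and Crot at -0.10 ± 0.17 (edgeR, adjusted p = 0.753). These SEs rest on a spread shared by all 4 groups, and the vehicle groups spread more. In the fit on the 14 WY libraries alone, Ehhadh stood at -0.04 ± 0.06 (edgeR, adjusted p = 0.671). Acaa1b stood there at -0.17 ± 0.06 (edgeR, adjusted p = 0.11) and Crot at -0.10 ± 0.09 (edgeR, adjusted p = 0.516).

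Whether the response to WY differed by genotype was tested as an interaction, which uses the same 28 libraries as the comparisons above. None of the 9 genes passed, with an unadjusted p under 0.05 for 3 of them (Ehhadh, Acaa1b and Decr2), and none of the 12607 genes did in edgeR (0%), although 1182 genes had an unadjusted p under 0.05 (9.38%), DESeq2 called 3 genes and limma 1. The estimate was positive for 8 of the 9 genes, with a median of 0.18 beside 0.0187 over all genes. Ehhadh had the largest estimate, 0.82 ± 0.35 (edgeR, unadjusted p = 0.0285, adjusted p = 0.493). Decr2 had the smallest p, with 0.32 ± 0.10 (edgeR, unadjusted p = 0.00321, adjusted p = 0.387). Acaa1b stood at 0.51 ± 0.24 (edgeR, adjusted p = 0.522) and Crot at 0.47 ± 0.24 (edgeR, adjusted p = 0.541). Acaa1a, at 0.01 ± 0.10 (edgeR, adjusted p = 0.98), and Pecr, at -0.01 ± 0.16 (edgeR, adjusted p = 0.993), were near 0 and changed sign under other settings.

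The balance between paired enzymes was compared within each liver, in a family of 8 tests. The log2 ratio of Ehhadh to Hsd17b4 lay at 4.04 to 4.22 in HZ WY, against 1.54 to 3.25 in HZ vehicle, a difference of 1.75. In WT it lay at 3.92 to 4.15 under WY, against 2.41 to 3.61 under vehicle, a difference of 0.98. Both differences had no overlap and an exact two-sided permutation p of 0.000583, the smallest that 7 against 7 livers allow (adjusted p = 0.00155 over the 8). Among untreated animals the ratio was 0.72 lower in HZ on the log2 scale (difference -0.72, exact permutation p = 0.0321, adjusted p = 0.0427).

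The log2 ratio of Acaa1b to Acaa1a was 3.90 to 4.07 in HZ WY, against 2.25 to 3.52 in HZ vehicle, a difference of 0.77 with no overlap (exact permutation p = 0.000583, adjusted p = 0.00155). In WT it was 3.83 to 4.01 under WY, against 3.16 to 4.04 under vehicle, a difference of 0.23 that missed the adjusted threshold (exact permutation p = 0.0472, adjusted p = 0.0539). Between genotypes this ratio differed by 0.08 under WY and by -0.46 under vehicle, with ranges that overlapped (exact permutation, adjusted p = 0.0427 for each). Without the 5 HZ libraries that stood apart, the vehicle differences were -0.62 for Ehhadh to Hsd17b4 and -0.32 for Acaa1b to Acaa1a, with an unadjusted exact permutation p of 0.0707 and 0.0556. The unadjusted p of the vehicle differences was also above 0.05 without WT animal 29, 32, 74 or 76 or HZ animal 38 for either ratio, and without WT animal 78 or HZ animal 36 or 39 for Ehhadh to Hsd17b4. That of the WY difference in Acaa1b to Acaa1a was above 0.05 without WT animal 10, 20 or 25 or HZ animal 5 or 18.

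**Figure D4:**
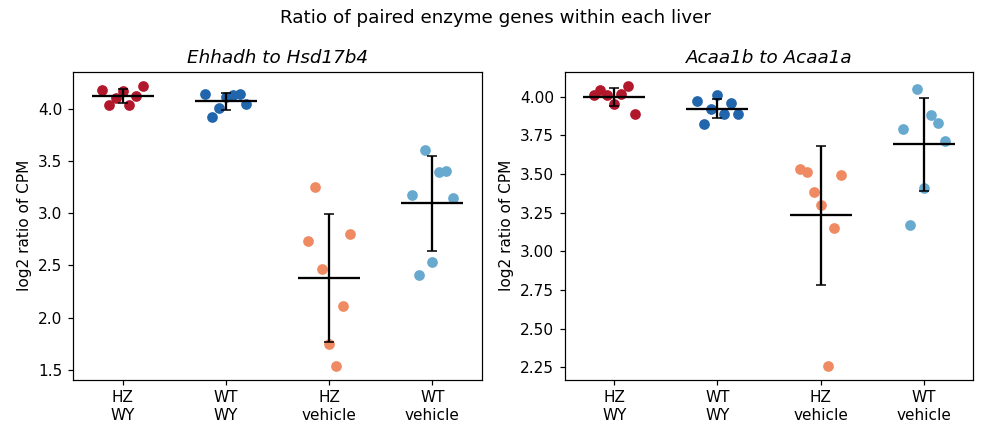
Log2 ratio of CPM of Ehhadh to Hsd17b4 (left) and of Acaa1b to Acaa1a (right) in each liver, with group mean and SD. The Ehhadh to Hsd17b4 ratio lay at 3.92 to 4.22 in the WY livers and at 1.54 to 3.61 in the vehicle livers.

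Around the 9 enzymes, 24 other peroxisomal genes were listed and 23 were tested. WY raised 15 and lowered 5 in HZ, beside 29.3% and 26.4% of all genes, and raised 13 and lowered 4 in WT, beside 27.4% and 26.7%. By the smallest p in HZ, Acot8, a peroxisomal acyl-CoA thioesterase, had a log2 fold change of 1.72 ± 0.13 (edgeR, adjusted p = 3.06e-11). Mlycd, which decarboxylates malonyl-CoA, followed with 0.86 ± 0.07 (edgeR, adjusted p = 8.83e-11), and Tysnd1, the protease that processes peroxisomal enzymes, with 0.91 ± 0.08 (edgeR, adjusted p = 3.96e-10). Pex11a, a factor of peroxisome division, rose by 2.54 ± 0.26 (edgeR, adjusted p = 9.53e-09) and Slc27a2, an acyl-CoA synthetase of very long chains, by 0.68 ± 0.08 (edgeR, adjusted p = 1.81e-08).

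In HZ against WT, 1 of these 23 genes passed as lower under WY (Mlycd, log2 fold change -0.27 ± 0.07; edgeR, adjusted p = 0.0319), beside 1.74% of all genes, and 9 passed as lower under vehicle, beside 1.77% of all genes. In the vehicle comparison, no gene, Sirt6 included, was called without those 5 HZ libraries or with vehicle animals 29 to 39 only. None was called either in a fit on the vehicle libraries alone or by exact permutation over all genes. In these settings, in that order, 1297, 1579, 1889 and 1742 genes had an unadjusted p under 0.05. These settings thus also missed the gene that defines the genotypes. The strongest by p under vehicle were Pex11a (log2 fold change -1.25 ± 0.25; edgeR, adjusted p = 0.0144) and Slc27a2 (-0.36 ± 0.08; edgeR, adjusted p = 0.0181). The median over the list was -0.08 under WY and -0.32 under vehicle.

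The 9 mitochondrial counterparts (Hadha, Hadhb, Hadh, Echs1, Acaa2, Eci1, Decr1, Crat and Cpt2, with Crat in both lists) gave 8 higher and none lower with WY in both genotypes. Over all genes, 29.3% passed as higher and 26.4% as lower in HZ, and 27.4% and 26.7% in WT. Decr1, the mitochondrial dienoyl-CoA reductase, had 588 ± 35.8 CPM in HZ WY, against 325 ± 60.1 CPM in HZ vehicle (SD, n = 7 each), a log2 fold change of 0.86 ± 0.09, beside 0.83 ± 0.07 for Decr2. Eci1, the mitochondrial isomerase, had one of 1.04 ± 0.08, beside 1.02 ± 0.10 for Eci2. The exception was Echs1, the enoyl-CoA hydratase, at -0.10 ± 0.06 in HZ (edgeR, adjusted p = 0.14) and 0.02 ± 0.06 in WT (edgeR, adjusted p = 0.843). In HZ against WT, none of the 9 passed in edgeR under WY (unadjusted p under 0.05 for 4, beside 3033 of all 12607 genes). Under vehicle all 9 had lower fitted values in HZ and 8 had an unadjusted p under 0.05, beside 2256 of all 12607 genes. Of the 9, 4 passed as lower (Cpt2, Crat, Decr1 and Eci1), beside 1.77% of all genes. These 4 calls were lost under the same 4 settings.

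Among the genes whose profile over the 28 livers was most like the mean profile of the 9 were Phb2, Pex14, Eci1 and Mettl7b. Their root mean square differences were 0.102 to 0.131 log2 units, where the median of the 8875 genes compared was 0.573. Among the members, Ehhadh (0.629) and Pecr (0.731) were farther from that mean profile than this median, and the others lay at 0.099 to 0.475. Phb2 had 457 ± 43.7 CPM in HZ WY and 517 ± 26.5 CPM in WT WY, against 216 ± 33.8 CPM in HZ vehicle and 275 ± 23.4 CPM in WT vehicle. For Ehhadh alone the most alike were Mgll, Cyp4a14, Serinc2, Slc22a5 and Pctp, with differences of 0.267 to 0.323, where the median was 1.17. Acaa1b, at 0.256, was closer to Ehhadh than any of these, and Pecr, at 1.34, was the farthest member.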

How the data were processed

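Liver RNA of 28 mice, 7 in each of 4 groups, was measured by sequencing. Per the labels' protocols, Trizol was used for extraction and the NEBNext Ultra kit for library construction. Per the submitters' processing notes, STAR 2.5.0a, HTSeq 0.6.1p1 and DESeq2 1.18.1 were named with build mm10; neither strand setting nor annotation is stated. The authors deposited raw, unnormalized counts per gene symbol in separate tables for vehicle and WY. HTSeq summary rows (5 per table; reads not placed uniquely were 35.8 to 42.6% of all rows) and gene names turned into dates (25 and 27 rows) were left out.

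Counts were fitted in edgeR 4.0.16 (filterByExpr, 12607 genes, TMM, robust quasi-likelihood, a mean per group, all 28 libraries, 24 residual degrees of freedom), with Benjamini-Hochberg adjustment over all genes per contrast and a threshold of 0.05; SE is from the F statistic. Log2 CPM used a prior count of 2. DESeq2 1.42.0 and limma 3.58.1 served as alternatives, beside other filters, exact permutation and libraries left out in turn. The fit was tested on simulated data. Replicates are animals by number; no number recurs between groups, and pairs within groups differed by more than counting error (chi-square per degree of freedom 10.3 to 107). Levels per kilobase used the longest coding transcript of GENCODE M21. Promoters are from RefSeq on GRCm38.p6; 8 of 9 genes were searched. The genes named are the 9 members, Sirt6, up to 5 called genes of the other peroxisomal list by smallest p, the mitochondrial counterparts, and the 5 genes most alike, of which some results are not reported here; acyl-CoA oxidases of the straight-chain pathway are not analysed here. Members and lists were chosen with earlier results of these data known.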

Additional observations from a re-analysis of the deposited data

Results flagged for a closer look

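Among the 36 combinations of gene and group, 3 had a liver far from its group by Dixon's test on log2 CPM at the 95% level. Chance flags about 1 in 20 groups. The gaps below are fractions of the range of log2 CPM, not of the CPM values printed beside them. Hsd17b4 in WT WY had 1537 CPM in animal 25, against 1330 to 1376 CPM in the other animals of the group, a gap of 0.766. Acaa1b in HZ vehicle had 818 CPM in animal 38, against 1777 to 2612 CPM in the others (0.668). Ech1 in HZ vehicle had 202 CPM in animal 38, against 312 to 389 CPM in the others (0.667).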

How the results depend on the processing

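WY against vehicle gave 9 called genes in both genotypes under all settings but one: with exact permutation over all genes, Pecr in HZ was not called (-0.36). Under vehicle, HZ against WT gave 4 called genes in the fit on all libraries, 8 in DESeq2 and in limma, 2 without a filter on low counts, 1 without HZ vehicle animals 30 and 38 (chosen after seeing the data), and 0 with only the groups compared, without the 5 HZ libraries, with vehicle animals 29 to 39 only and with exact permutation; leaving out single libraries gave 1 to 8. Under WY, HZ against WT gave 1 called gene, 2 with only the groups compared and with exact permutation, and 0 without a filter and without the 5 HZ libraries; leaving out single libraries gave 0 to 1. The interaction gave 0 called genes in every setting run; a fit on only the groups compared would be the same fit and was not run. Pecr in HZ against WT was 0.02 under vehicle without the 5 HZ libraries and without animals 30 and 38, and 0.01 under WY without the length trend and without the 5 HZ libraries; its leave-one-out range under vehicle was -0.11 to 0.00. The interaction was -0.01 for Acaa1a with DESeq2, with its size factors, without the length trend and without the 5 HZ libraries (leave-one-out -0.03 to 0.05), and 0.04 for Pecr without the length trend and with animals 29 to 39 (leave-one-out -0.11 to 0.05). The causes were not tested.

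Over all genes, HZ against WT under vehicle gave 261 calls, 500 in DESeq2, 701 in limma, 146 without a filter, 4 without animals 30 and 38 and 0 with only the groups compared, without the 5 HZ libraries and with animals 29 to 39 (single libraries out, 43 to 650). The share of calls that were higher was 14.6%, and 25.5% in limma. Under WY it gave 398 calls, 1102 in DESeq2, 683 with DESeq2 size factors, 934 in limma, 951 without animals 30 and 38, 153 without a filter and 48 without the 5 HZ libraries (single libraries out, 74 to 977); the share higher was 45%, and 29.7% with DESeq2 size factors and 28.7% without the length trend. No paired analysis was possible because no animal number occurs in more than 1 group. Depth did not limit the 9 genes, whose lowest count was 2217; Sirt6 had as few as 15.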
